A study of Mus musculus with 17 samples.

Results

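The genes described are the Hox cluster genes, taken as every protein-coding row of the deposited table whose symbol is Hoxa, Hoxb, Hoxc or Hoxd followed by a number. They are 39 genes of the 54532 rows in the table, with *Hoxd4* listed in 2 rows, and they lie in 4 clusters. RNA was sequenced from R1/E mouse embryonic stem cells, a line that can be turned towards differentiated cell types in culture with all-trans retinoic acid (RA). The 17 libraries were wild-type cells at day 0 (n = 2), day 1 (n = 3) and day 3 (n = 3) of RA differentiation, and *Usb1* knockout (KO) cells at day 0, day 1 and day 3 (n = 3 each). Day 0 of each genotype was before RA, all other groups had RA, and the libraries of a group were separate biological replicates. Every KO library came from the single line KO-1, made by genome editing, so that the *Usb1* mutation and the history of 1 line cannot be told apart. *Usb1* encodes a nuclease that trims and finishes the 3′ end of U6 small nuclear RNA.

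Hox genes encode homeodomain transcription factors that give cells their position along the head-to-tail axis of the embryo. In mammals they sit in clusters in which gene order follows both the order of activation and the place of expression, so that low paralogue numbers act early and towards the hindbrain and high numbers act late and towards the tail. RA binds nuclear receptors of the RAR and RXR families, which sit at elements within and around the clusters, and RA-treated embryonic stem cells are a long-used model of this stepwise activation. Before RA, the clusters of stem cells are held silent by Polycomb repressive complexes.

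The label of the knockout was checked first on *Usb1*. In wild-type cells, *Usb1* was at 40.0 and 37.1 TPM (a level corrected for gene length and library depth) at day 0, at 56.9, 48.6 and 51.9 TPM at day 1, then at 33.7, 32.0 and 35.8 TPM at day 3. In KO cells, it was at 15.5, 15.2 and 17.9 TPM at day 0, at 20.7, 21.4 and 18.5 TPM at day 1, then at 14.7, 17.2 and 20.4 TPM at day 3. *Usb1* transcripts were thus lower but still present in all 9 KO libraries, and the groups did not overlap at any day. The edit in KO-1 shifts the reading frame and leaves a transcript, so the RNA level is a partial check of the label. The label of the cells was checked on 8 embryonic stem cell markers, all of which were above 1 TPM in every group, with a summed level of 9651 and 9712 TPM in wild-type cells at day 0 and 1153, 1259 and 1026 TPM at day 3. Reads on genes, recovered from TPM, numbered 15404379 to 17300186 per library. Wild-type replicate 1 at day 0 stood apart, with 239 genes of a single read against 1352 in replicate 2 and 2150 to 2467 in the other libraries apart from KO replicate 1 at day 3, which had 1224. Values of a few reads were thus rarer in these libraries than elsewhere. Several Hox results that rest on wild-type replicate 1 at day 0 or KO replicate 1 at day 3 are also given without it. Calls of the marker and other gene lists are not given without these libraries. Wild-type replicate 2 at day 0 also lay below every KO library at day 0, which had 2150 to 2361 such genes. Leaving out wild-type replicate 1 thus does not remove this gap from day 0 differences that rest on few reads.

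Of the 39 genes, 31 reached 1 TPM in at least 2 of the 17 libraries and were tested among 21871 genes, and 3 of these 31, *Hoxc8*, *Hoxc9* and *Hoxc10*, did so through day 3 alone. The 8 that were not tested were *Hoxa11*, *Hoxa13*, *Hoxc11*, *Hoxd3*, *Hoxd4*, *Hoxd10*, *Hoxd11* and *Hoxd12*, none of which went above 1.24 TPM in any library. The Hoxa cluster (chr6:52155590-52260880, GRCm38.p6) had 9 of 11 genes tested, Hoxb (chr11:96194316-96368256) 10 of 10, Hoxc (chr15:102921103-103036852) 8 of 9 and Hoxd (chr2:74668310-74765142) 4 of 9.

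Upstream windows are shown for 4 genes on which the results turn. *Hoxb1* had the largest difference between the genotypes, *Hoxa5* the highest level, and *Hoxb4* and *Hoxc4* are paralogues of the same number with a different time course. RefSeq start sites on GRCm38.p6 gave 24 windows for 22 of the 39 genes, and the 250 bases before the start are printed 5′ to 3′ on the strand of the gene. Capitals mark matches, on either strand, to AGGTCA, the half-site letters of RA receptors and other nuclear receptors, or to TGATNNAT, the letters bound by Hox and Pbx proteins together. The window of *Hoxb1* is chr11:96365508-96365757 (plus strand), that of *Hoxb4* chr11:96318017-96318266 (plus strand), that of *Hoxc4* chr15:103034145-103034394 (plus strand) and that of *Hoxa5* chr6:52204588-52204837 (minus strand).
Hoxb1: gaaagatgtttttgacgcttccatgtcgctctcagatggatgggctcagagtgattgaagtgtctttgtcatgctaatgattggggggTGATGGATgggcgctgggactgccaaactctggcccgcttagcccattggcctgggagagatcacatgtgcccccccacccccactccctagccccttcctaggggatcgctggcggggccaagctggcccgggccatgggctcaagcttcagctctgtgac
Hoxb4: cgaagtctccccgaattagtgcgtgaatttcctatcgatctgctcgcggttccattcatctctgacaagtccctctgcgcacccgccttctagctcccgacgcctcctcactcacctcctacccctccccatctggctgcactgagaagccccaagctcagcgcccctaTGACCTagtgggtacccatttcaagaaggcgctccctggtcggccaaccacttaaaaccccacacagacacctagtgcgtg
Hoxc4: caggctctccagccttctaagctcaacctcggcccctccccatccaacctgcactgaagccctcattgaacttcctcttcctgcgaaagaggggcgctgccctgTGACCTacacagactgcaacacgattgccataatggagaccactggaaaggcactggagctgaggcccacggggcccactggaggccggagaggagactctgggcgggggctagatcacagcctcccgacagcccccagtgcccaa
Hoxa5: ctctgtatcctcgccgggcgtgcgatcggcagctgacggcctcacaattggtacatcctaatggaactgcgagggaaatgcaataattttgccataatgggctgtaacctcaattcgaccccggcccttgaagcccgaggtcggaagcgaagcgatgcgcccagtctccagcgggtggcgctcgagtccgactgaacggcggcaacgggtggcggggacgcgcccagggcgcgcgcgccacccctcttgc
The TGATNNAT match of *Hoxb1* begins 162 bases before its start. *Hoxb4* and *Hoxc4* both carry AGGTCA, read on the other strand as TGACCT, 81 and 146 bases before the start, and *Hoxa5* carries neither set of letters. AGGTCA was found in 6 of the 24 Hox windows (25.0%; *Hoxb4*, *Hoxc4*, *Hoxd3*, *Hoxd4*, *Hoxd8* and *Hoxd10*) and in 14.0% of all 32851 windows of this length. TGATNNAT was found in 4 Hox windows (16.7%; *Hoxa2*, *Hoxb1*, *Hoxb8* and *Hoxd11*) and in 7.7% of all windows. The median number of CG pairs was 12.5 in the Hox windows and 6 in all windows. A match is a stretch of letters and was not tested as a site.

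Hox levels were higher after RA in both genotypes, cluster by cluster. Every library after day 0 had RA, so RA and time in culture cannot be told apart. Before RA the 40 rows summed to 17.8 ± 0.172 TPM in wild-type (SD, n = 2) and 20.4 ± 2.06 TPM in KO cells (SD, n = 3). At day 1 they summed to 494 ± 10.8 and 355 ± 1.87 TPM, and at day 3 to 629 ± 18.2 and 582 ± 42.7 TPM (SD, n = 3 each). The Hoxa genes summed to 3.47 and 3.75 TPM in wild-type cells against 6.89, 5.95 and 4.64 TPM in KO cells at day 0. At day 1 these sums were 328, 313 and 332 TPM in wild-type cells against 247, 255 and 249 TPM in KO cells, and at day 3 they were 277, 289.8 and 258 TPM and 244, 263 and 253 TPM. Hoxa was thus no lower at day 1 than at day 3 in wild-type cells, and the KO libraries lay below the wild-type ones at day 1 and overlapped them at day 3.

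The Hoxb genes summed to 155, 154 and 150.3 TPM in wild-type cells against 86.7, 83.3 and 86.1 TPM in KO cells at day 1, after 7.85 and 6.21 TPM in wild-type cells against 7.78, 7.20 and 6.91 TPM in KO cells at day 0. At day 3 they summed to 254, 249 and 248 TPM in wild-type cells against 185, 221 and 189 TPM in KO cells, so that Hoxb was still rising, and the genotypes did not overlap on either day. The Hoxc genes summed to 13.3, 9.53 and 11.04 TPM in wild-type cells against 12.6, 13.3 and 11.1 TPM in KO cells at day 1, and to 93.5, 90.6 and 90.6 TPM and 104, 133 and 124 TPM at day 3. Hoxc therefore rose mostly after day 1, and at day 3 the KO libraries lay above all wild-type libraries. The Hoxd genes stayed low, with sums of 4.59, 3.87 and 4.64 TPM in wild-type cells against 7.23, 5.13 and 8.14 TPM in KO cells at day 1, where the KO libraries were all higher. At day 3 the Hoxd sums were 12.6, 12.9 and 11.1 TPM and 10.8, 10.4 and 9.57 TPM, and the KO libraries were all lower. In these bulk libraries, fewer cells with an active cluster and less RNA per cell cannot be told apart.

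**Figure D1:**
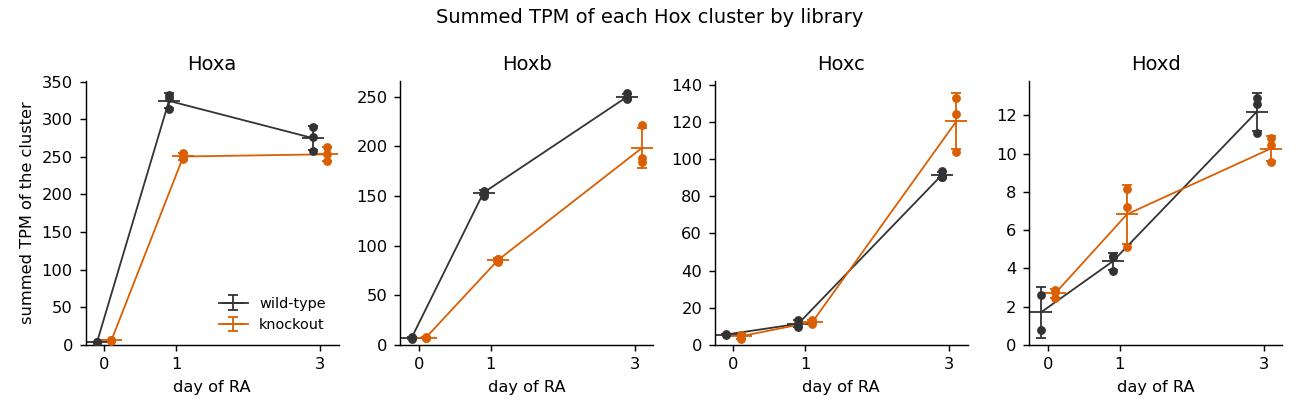
Summed TPM of the genes of each Hox cluster (y axis, from 0, a different scale in each panel) against day of RA treatment (x axis, in days) in wild-type (dark) and Usb1 knockout (orange) cells, with a point for each library and a bar for the mean ± SD of each group (n = 2 for wild-type at day 0, n = 3 otherwise). Hoxa was near its day 3 level at day 1, Hoxb was part of the way there, and Hoxc rose between day 1 and day 3.

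In wild-type cells, 21 of the 39 genes were called higher (adjusted p under 0.05 and at least a 2-fold change on the log2(TPM + 1) scale) and 1 lower at day 1 against day 0, where 13.9% of all genes tested were called (9.99% higher and 3.88% lower). At day 3 against day 0, 30 were called higher and none lower, with 25.8% of all genes called (16.1% higher and 9.68% lower). Between day 1 and day 3, 14 rose and 1 fell, with 15.2% of all genes called (7.70% higher and 7.54% lower). In KO cells, 22 rose and 1 fell at day 1, where 6.95% of all genes were called (4.07% higher and 2.87% lower). At day 3 against day 0, 28 rose and none fell, against 21.9% of all genes (13.8% higher and 8.04% lower). Between day 1 and day 3, 15 rose and none fell in KO cells, against 15.3% of all genes (9.60% higher and 5.73% lower). Of the 31 genes tested, 22 reached 1 TPM in no library at day 0, so that a rise against day 0 was built into their entry and these counts are descriptions. The other 9 reached it in at least 1 library at day 0. Of these 9, 6 were called higher and 1 lower at day 1 in each genotype, and 8 in wild-type and 7 in KO cells were called higher at day 3. Without wild-type replicate 1 at day 0, 21 genes rose and none fell at day 1 in wild-type cells and 29 rose at day 3. Without KO replicate 1 at day 3, 28 rose at day 3 against day 0 in KO cells and 14 between day 1 and day 3. Over the 40 rows, tested or not, the median change on the log2 scale was 1.13 at day 1 and 2.73 at day 3 in wild-type cells, and 1.33 and 2.46 in KO cells. It was 0 for all 54532 rows in each of the 4 comparisons. At most 24900 of these rows were above 0 in any library, so that a median of 0 was largely built in. Over the 21871 genes tested, the medians were 0.175 and 0.102 in wild-type and 0.0177 and 0.0311 in KO cells. The scaling moved the split over all genes, from 2185 called higher and 848 lower to 1530 and 1254 with libraries set to an equal median at day 1 in wild-type cells, where the median of all genes was 0.175, and from 3522 and 2118 to 2804 and 2822 at day 3. In KO cells it moved from 891 and 628 to 727 and 797 at day 1, from 3023 and 1759 to 2134 and 2953 at day 3, and from 2100 and 1253 to 1546 and 1887 between day 1 and day 3. With an equal median, 8 and 9 of the 9 Hoxa genes tested and all 10 Hoxb genes were still called at day 1 in wild-type and KO cells.

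**Figure D2:**
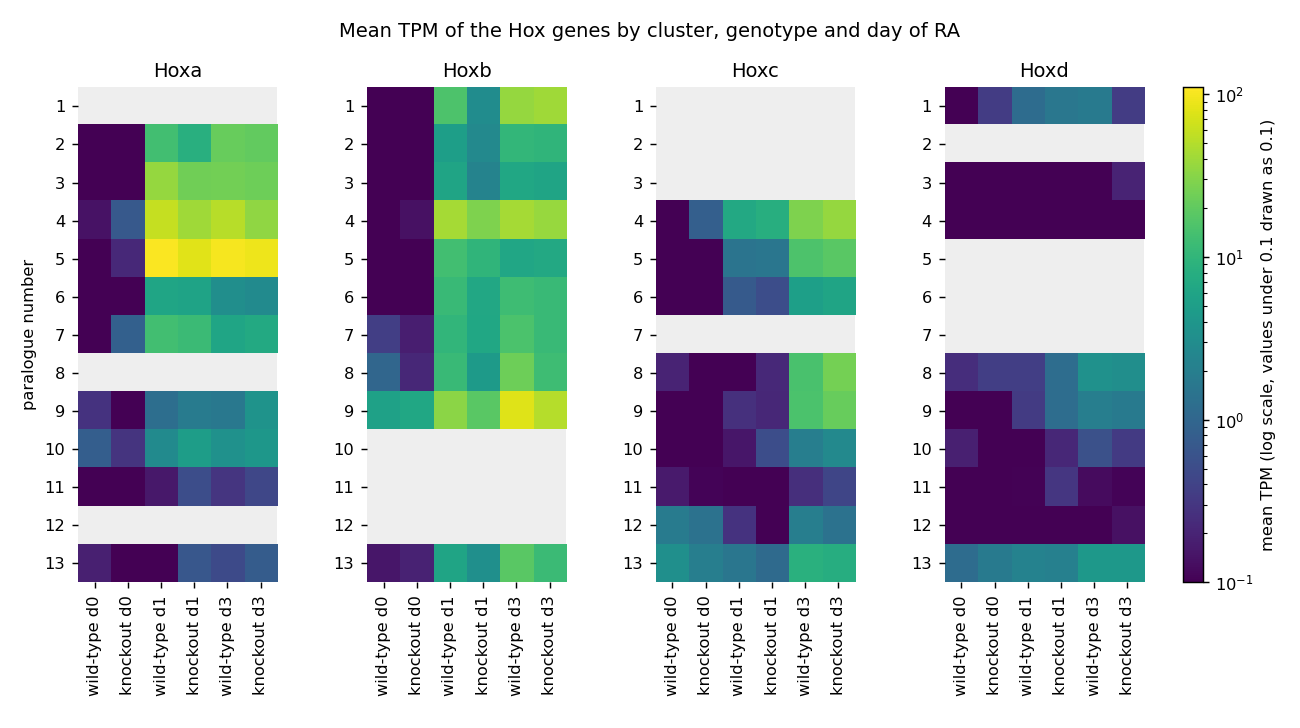
Mean TPM of the Hox genes (colour, log scale, values under 0.1 drawn as 0.1) by paralogue number (rows) in the 6 groups of genotype and day (columns), 1 panel for each cluster, with grey where no value is drawn and 1 of the 2 Hoxd4 rows drawn. In Hoxa and Hoxb most of the colour change falls between day 0 and day 1, and in Hoxc between day 1 and day 3.

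Hoxa held the highest levels of all. *Hoxa5*, which patterns the neck and upper trunk and the lung, was at 0 TPM in both wild-type libraries at day 0, at 100.5, 108 and 112 TPM at day 1, then at 99.7, 106 and 95.04 TPM at day 3. The KO libraries held 0.115, 0.446 and 0.116 TPM at day 0, 83.3, 78.4 and 82.1 TPM at day 1 and 93.4, 95.3 and 84.5 TPM at day 3. *Hoxa5* had the largest rise of any Hox gene at day 1 in wild-type (log2 difference 6.75, SE 0.11, adjusted p = 1.35e-14) and in KO cells (log2 difference 6.08, SE 0.09, adjusted p = 1.23e-14), and the KO libraries lay below the wild-type ones at day 1. *Hoxa5* passed the filter of 1 TPM only through days 1 and 3, so that a rise against day 0 was built into its entry.

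*Hoxa4*, a gene of the neck vertebrae, was at 0 and 0.283 TPM in wild-type cells at day 0, at 60.4, 59.5 and 56.9 TPM at day 1, then at 53.4, 52.1 and 48.3 TPM at day 3. Its KO values were 0.815, 0.919 and 0.409 TPM at day 0, 39.9, 43.2 and 37.7 TPM at day 1 and 27.3, 40.8 and 36.3 TPM at day 3. The genotypes were thus apart at every day, the KO higher before RA and lower after it. The order before RA rests on 0 and 2 reads in wild-type against 6, 7 and 3 reads in KO cells. The 0 is in wild-type replicate 1, where values of a few reads were rarer. *Hoxa4* had the second largest rise at day 1 in wild-type cells (log2 difference 5.73, SE 0.16, adjusted p = 9.07e-12). It too passed the filter of 1 TPM only through days 1 and 3, so that a rise against day 0 was built in. *Hoxa3*, which acts in the throat region and thymus, went from 0 in both wild-type libraries at day 0 to 36.9, 35.6 and 36.0 TPM at day 1 and 25.5, 24.8 and 24.4 TPM at day 3. The KO libraries went from 0.0720, 0.0348 and 0.144 TPM to 22.5, 26.8 and 23.7 TPM and 19.8, 27.2 and 23.6 TPM. The wild-type libraries fell between day 1 and day 3, a change past the adjusted p but not the 2-fold limit (log2 difference -0.52, SE 0.11, adjusted p = 0.00126), while the KO groups overlapped. On *Hoxa3*, 25.4% of the exon bases lie opposite antisense genes, on *Hoxa7* 20.4% and on *Hoxa4* 16.0%, and such reads cannot be told apart because the counting is not stated to use strand.

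*Hoxa2*, which patterns the second arch of the face and throat, was at 0 TPM in every library of both genotypes at day 0. After a day of RA, *Hoxa2* stood at 12.5, 12.3 and 15.3 TPM in wild-type cells against 7.65, 9.82 and 7.14 TPM in KO cells, and at 24.0, 23.6 and 17.8 TPM and 19.5, 21.3 and 19.8 TPM at day 3. Between day 1 and day 3 it rose in KO cells (log2 difference 1.21, SE 0.14, adjusted p = 6.06e-06) and by less than the 2-fold limit in wild-type cells (log2 difference 0.66, SE 0.14, adjusted p = 0.00157). Its KO level at day 1 was at least 22.6-fold above that of 3 reads in the KO libraries at day 0. *Hoxa7*, a gene of the trunk vertebrae, was at 13.9, 11.2 and 14.9 TPM in wild-type cells at day 1, then at 6.16, 5.80 and 6.21 TPM at day 3, after 0 at day 0. KO cells had 0.979, 1.16 and 0.453 TPM at day 0, 11.4, 12.1 and 12.4 TPM at day 1 and 5.59, 7.52 and 7.99 TPM at day 3. It was the single gene called lower between day 1 and day 3 in wild-type cells (log2 difference -1.01, SE 0.17, adjusted p = 0.000163). That was at the edge of the 2-fold limit, since it was -0.98, -0.94 and -0.99 without wild-type replicate 1 or 3 at day 1 or replicate 2 at day 3. *Hoxa6*, *Hoxa9* and *Hoxa10*, of the lower trunk and blood lineages, had group means of at most 6.09 TPM, and *Hoxa11* and *Hoxa13* did not pass 1.24 TPM.

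In Hoxb all 10 genes rose at day 1 in both genotypes, and all but *Hoxb8* and *Hoxb9* passed the filter of 1 TPM only through days 1 and 3. *Hoxb1* (chr11:96365752-96368256, plus strand), which gives the fourth hindbrain segment its identity and feeds back on its own promoter through Hox and Pbx proteins, was at 0 TPM in every library at day 0, where 0 reads allow up to 0.277 TPM (3 reads, mean over the KO libraries). By day 1 it stood at 18.6, 13.8 and 14.8 TPM in wild-type cells and at 3.01, 2.97 and 3.14 TPM in KO cells. By day 3 it stood at 39.6, 36.5 and 33.6 TPM in wild-type cells against 38.8, 43.1 and 40.9 TPM in KO cells. *Hoxb1* was thus far lower in the KO at day 1, with no overlap, and the groups overlapped at day 3. *Hoxb2*, a neighbour of *Hoxb1* in the hindbrain programme, was at 5.29, 5.17 and 4.74 TPM in wild-type cells against 3.47, 1.98 and 2.64 TPM in KO cells at day 1, and at 10.3, 9.69 and 11.2 TPM and 8.44, 11.6 and 9.09 TPM at day 3, after 0 at day 0 in every library. *Hoxb2* followed the same order of genotypes at day 1, and 27.3% of its exon bases lie opposite the antisense gene *Hoxb3os*. *Hoxb3* was at 6.57, 5.54 and 5.96 TPM in wild-type cells against 2.44, 2.38 and 2.12 TPM in KO cells at day 1 and did not go above 8.46 TPM, and 52.9% of its exon bases lie opposite *Hoxb3os*.

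*Hoxb4*, known for the growth of blood stem cells when supplied in excess, was at 0 TPM in both wild-type libraries at day 0, at 44.7, 41.0 and 41.1 TPM at day 1, then at 41.7, 42.7 and 42.9 TPM at day 3. Its KO levels were 0.0844, 0.326 and 0 TPM at day 0, 28.7, 30.3 and 26.3 TPM at day 1 and 33.4, 43.8 and 34.3 TPM at day 3. It had the third largest rise of all Hox genes at day 1 in wild-type cells, after *Hoxa5* and *Hoxa4* (log2 difference 5.43, SE 0.13, adjusted p = 1.67e-12). *Hoxb4* also passed the filter of 1 TPM only through days 1 and 3, so that a rise against day 0 was built in. *Hoxb5*, a gene of the shoulder region and of the nerves of the gut, peaked at day 1, at 11.6, 15.2 and 12.9 TPM in wild-type cells against 8.83, 9.89 and 10.7 TPM in KO cells. Its day 3 values were 5.35, 7.74 and 5.75 TPM and 6.40, 6.70 and 7.33 TPM, and before RA it was at 0 in wild-type cells and at 0.156, 0 and 0 TPM in KO cells. Its fall after day 1 passed the adjusted p in both genotypes but not the 2-fold limit (log2 difference -0.97 in wild-type and -0.47 in KO cells).

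*Hoxb6*, a trunk gene, was at 9.18, 14.5 and 10.8 TPM in wild-type cells against 6.70, 6.50 and 6.64 TPM in KO cells at day 1, at 12.5, 15.2 and 10.04 TPM and 11.4, 11.4 and 12.1 TPM at day 3, and at 0 and 0.221, 0 and 0 TPM at day 0. *Hoxb7*, also a trunk gene, was at 0 and 0.731 TPM in wild-type cells against 0.140, 0.407 and 0 TPM in KO cells at day 0, at 12.1, 9.08 and 8.84 TPM and 5.91, 5.91 and 7.58 TPM at day 1, then at 19.3, 12.6 and 14.0 TPM and 13.2, 13.6 and 7.72 TPM at day 3. For both, the KO libraries lay below the wild-type ones at day 1 and overlapped them at day 3. *Hoxb8*, a gene of the spinal cord and of blood-derived cells, was at 1.83 and 0.171 TPM in wild-type cells against 0.575, 0 and 0.0824 TPM in KO cells at day 0. It rose to 9.01, 12.4 and 12.7 TPM and 3.62, 4.23 and 5.90 TPM at day 1 and to 26.5, 23.8 and 20.7 TPM and 13.3, 12.9 and 10.9 TPM at day 3. The KO libraries were below all wild-type libraries at both days of RA.

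*Hoxb9*, which patterns the ribs, was the Hox gene with the highest level before RA, at 6.02 and 5.0 TPM in wild-type cells against 6.31, 6.18 and 6.83 TPM in KO cells. It rose to 33.6, 30.7 and 32.3 TPM and 20.7, 16.2 and 17.6 TPM at day 1 and to 74.9, 74.4 and 85.2 TPM and 45.1, 54.0 and 52.0 TPM at day 3. It became the most abundant Hoxb transcript at day 3 and remained lower in the KO at both days of RA. *Hoxb13*, at the far end of the cluster and best known in the tail and the prostate, also rose, to 4.88, 7.03 and 6.19 TPM in wild-type cells against 3.37, 2.85 and 3.57 TPM in KO cells at day 1. It had been at 0 and 0.307 TPM and 0.295, 0.285 and 0 TPM before RA, and by day 3 was at 17.7, 19.4 and 18.0 TPM and 10.3, 15.9 and 9.55 TPM. The highest paralogue number of the cluster was thus also higher after 1 day of RA (log2 difference 2.61, SE 0.22, adjusted p = 4.7e-07 in wild-type cells). *Hoxb13* passed the filter of 1 TPM only through days 1 and 3, so that a rise against day 0 was built into its entry.

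Hoxc followed later. *Hoxc4*, the member nearest the early end of its cluster, was at 7.02, 5.87 and 7.38 TPM in wild-type cells against 8.34, 9.39 and 6.50 TPM in KO cells at day 1. By day 3 it stood at 29.0, 24.8 and 30.6 TPM and 30.5, 40.2 and 38.8 TPM, after 0 in both wild-type libraries and 1.18, 0.489 and 0.845 TPM in KO cells at day 0. *Hoxc4* was the Hoxc gene with the highest level at both days. *Hoxc5* was at 1.99, 1.51 and 0.927 TPM in wild-type cells against 1.37, 1.51 and 1.86 TPM in KO cells at day 1, then at 16.0, 18.0 and 12.8 TPM and 15.6, 18.8 and 20.9 TPM at day 3, with 0 and 0.0701, 0.0678 and 0 TPM at day 0. Its rise between the days of RA was log2 difference 2.75, SE 0.19, adjusted p = 1.77e-08 in wild-type cells, and 5.4% of its exon bases overlap *Hoxc10*.

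*Hoxc8* and *Hoxc9*, which act in motor neurons and vertebrae of the trunk, were close to 0 until after day 1. *Hoxc8* was at 0 and 0.399 TPM in wild-type cells at day 0, 0, 0 and 0.156 TPM at day 1 and 15.9, 15.6 and 12.7 TPM at day 3. In KO cells it was at 0 in the 3 libraries at day 0, at 0.524, 0.143 and 0 TPM at day 1, then at 22.0, 27.3 and 27.9 TPM at day 3, at least 113-fold above the level of 3 reads at day 0. Its difference between day 1 and day 3 was 3.90 (SE 0.19, adjusted p = 7.14e-10) in wild-type and 4.47 (SE 0.19, adjusted p = 1.5e-10) in KO cells on the log2 scale. *Hoxc8*, *Hoxc9* and *Hoxc10* passed the filter of 1 TPM only through day 3, so that a rise after day 1 was built into their entry. *Hoxc9* was at 0.362, 0.350 and 0.0906 TPM in wild-type cells against 0.0873, 0.250 and 0.316 TPM in KO cells at day 1. It was at 14.1, 14.9 and 16.7 TPM and 21.6, 24.4 and 18.5 TPM at day 3, from 0 and 0.0929 TPM and 0.267, 0 and 0 TPM at day 0. Its rise after day 1 was 3.68 (SE 0.17, adjusted p = 3.71e-10) in wild-type and 4.20 (SE 0.17, adjusted p = 8.27e-11) in KO cells on the log2 scale. *Hoxc4*, *Hoxc6*, *Hoxc10*, *Hoxc12* and *Hoxc13* were also called higher at day 3 than at day 1 in each genotype. All 8 Hoxc genes tested were thus called, while *Hoxc11* was too low to be tested. Of all genes, 7.70% were called higher in wild-type and 9.60% in KO cells. *Hoxc12* and *Hoxc13*, the latter known from hair, behaved differently, with a mean above 1 TPM before RA. *Hoxc12* fell at day 1, from 2.84 and 0.876 TPM to 0.426, 0.412 and 0 TPM in wild-type cells and from 1.68, 0.406 and 2.11 TPM to 0.206, 0 and 0 TPM in KO cells. It was the single Hox gene called lower at day 1 in each genotype (log2 difference -1.09, SE 0.37, adjusted p = 0.0298 in wild-type, log2 difference -1.09, SE 0.33, adjusted p = 0.0218 in KO). *Hoxc12* passed the filter of 1 TPM only through days 0 and 3, so that a low level at day 1 was partly built into its entry. Without wild-type replicate 1 at day 0, *Hoxc12* changed by -0.57 in wild-type cells with an adjusted p of 0.338 and was no longer called.

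In Hoxd no gene reached a mean of 10 TPM, and 5 of its 9 genes were too low to be tested. *Hoxd13*, a gene of the digits and the genital region, was the most abundant in every group, at 0.759 and 1.64 TPM before RA and 3.83, 4.09 and 4.58 TPM at day 3 in wild-type cells. *Hoxd8* and *Hoxd9* rose to at most 4.25 TPM. *Hoxd1*, the member at the early end of the cluster and a gene of pain-sensing neurons, was at 1.298, 0.684 and 1.54 TPM in wild-type cells on day 1 and 1.86, 1.48 and 1.87 TPM at day 3. KO cells had 2.39, 0.980 and 1.44 TPM at day 1 and 0.104, 0.489 and 0.457 TPM at day 3, below every wild-type library.

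The order of the clusters in time was compared through the level at day 1 as a percent of the level at day 3, for the 23 genes with a group mean of at least 5 TPM. This limit was reached at day 3 alone by 5 of the 6 Hoxc genes, all but *Hoxc4*, and at day 1 alone by *Hoxa6*, so that it builds part of the low Hoxc percents in. In wild-type cells the median was 139% for 7 Hoxa genes (61.4% to 220.0%), 57.0% for 10 Hoxb genes (32.8% to 211%) and 11.7% for 6 Hoxc genes (0.352% to 24.0%). In KO cells the medians were 109%, 38.2% and 8.71%. The lowest Hoxc percents, those of *Hoxc8* and *Hoxc9*, rest on day 1 means near or under the level of 3 reads. The range of Hoxc did not overlap that of Hoxa or Hoxb in either genotype other than at *Hoxb1* in KO cells, at 7.43%. Within Hoxb, the percent rose from *Hoxb1* (43.0%) to *Hoxb5* (211%) and then fell to *Hoxb13* (32.8%) in wild-type cells. The share reached by day 1 was thus highest in the middle of Hoxb and lower at both ends. Paralogues of the same number differed by cluster, since *Hoxa4* was at 115%, *Hoxb4* at 99.5% and *Hoxc4* at 24.0% in wild-type cells. These percents are descriptions of group means and were not tested between clusters.

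**Figure D3:**
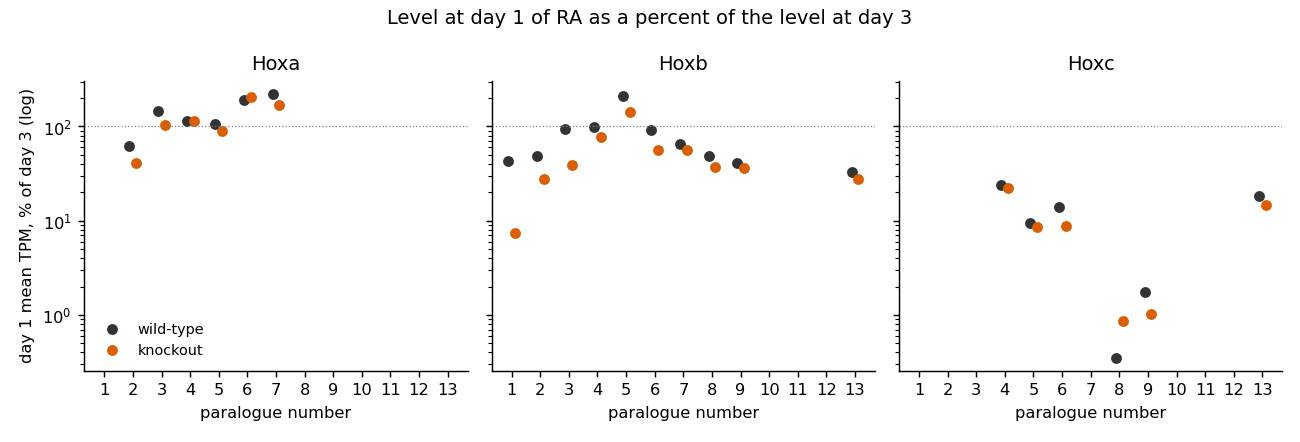
Mean TPM at day 1 as a percent of the mean at day 3 (y axis, log scale, dotted line at 100%) by paralogue number (x axis) for 22 of the 23 Hox genes with a group mean of at least 5 TPM, in wild-type (dark) and knockout (orange) cells. The Hoxa genes drawn other than Hoxa2 sat at 89.2% or more, Hoxc genes at 24.0% or less, and Hoxb1 in the knockout fell to 7.43%.

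TPM was also summed over the genes of the same paralogue number, and the numbers given here are not a ranking. At day 1 in wild-type cells, the genes numbered 5 summed to 121 ± 6.35 TPM and those numbered 4 to 108 ± 3.62 TPM (SD, n = 3), while group 10 summed to 3.09 TPM, group 11 to 0.260 TPM and group 12 to 0.308 TPM. In KO cells groups 5 and 4 summed to 92.6 ± 2.53 and 76.8 ± 6.26 TPM. Group 9 rose from 34.1 TPM at day 1 to 97.0 TPM at day 3 in wild-type cells and from 21.4 TPM to 77.3 TPM in KO cells, with *Hoxb9* as its main member.

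Before RA, no Hox gene was called between the genotypes by limma on log2(TPM + 1), where 3.05% of all genes were (1.60% higher and 1.45% lower). These were 350 higher and 318 lower, or 534 and 226 with an equal median and 844 and 436 by voom. With the adjusted p alone, 11.9% of all genes passed (5.08% higher and 6.80% lower). By that measure 3 Hox genes were higher in KO cells and none lower, namely *Hoxa4* (0.59, adjusted p = 0.034), *Hoxa7* (0.88, adjusted p = 0.00864) and *Hoxc4* (0.86, adjusted p = 0.00997), each at or under 1.18 TPM in every library. Voom on the recovered reads called 2 genes, both higher in the KO. Limma with a pseudocount of 0.1 called 4 Hox genes, all higher in the KO, where 953 of all genes were called. Without wild-type replicate 1, the adjusted p was 0.258 for *Hoxa4*, 0.0456 for *Hoxa7* and 0.0532 for *Hoxc4*. Leaving out KO replicate 2 or 3 gave 1 called higher, where 513 and 501 of all genes were called. Leaving out wild-type replicate 2 left 1 wild-type library at day 0. It raised the calls over all genes as well as those of Hox genes, so the Hox calls of that fit are not read here.

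At day 1 of RA the Hoxb genes were lower in KO cells. All 10 lay below wild-type on average, 8 passed the adjusted p and 3 were called, against 2.22% of all genes called (0.462% higher and 1.76% lower). No Hox gene was called higher by limma on log2(TPM + 1). Voom on the recovered reads called 3 Hox genes lower and 1 higher, a Hoxd gene, where 496 of all genes were called lower and 168 higher. Limma with a pseudocount of 0.1 called 2 Hox genes lower and 1 higher, with its count over all genes not given here. *Hoxb1* had the largest difference (log2 difference -2.04, SE 0.12, adjusted p = 9.09e-08), and its KO mean was 19.3% of the wild-type mean, 3.04 ± 0.0895 against 15.7 ± 2.50 TPM (SD, n = 3). *Hoxb8* (log2 difference -1.15, SE 0.28, adjusted p = 0.0116) and *Hoxb3* (log2 difference -1.08, SE 0.19, adjusted p = 0.00163) followed, at 40.3% and 38.5% of wild-type. In Hoxa, 4 genes passed the adjusted p with smaller changes, *Hoxa2*, *Hoxa3*, *Hoxa4* and *Hoxa5*, between -0.65 and -0.39. No Hoxc gene passed, and in Hoxd *Hoxd9* was higher in the KO by the adjusted p alone (0.73, adjusted p = 0.0215). In all, 12 Hox genes were lower by the adjusted p alone and 1 higher, where 17.3% of all genes passed (3.74% higher and 13.6% lower).

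The values of all genes at day 1 were shifted towards lower in the KO, with a median of -0.13 on the log2 scale, so the scaling bears on this comparison. With the libraries set to an equal median, *Hoxb1* was at -1.82 (adjusted p = 4.56e-07) and was the single Hox gene called, while *Hoxb3* was at -0.87 and *Hoxb8* at -0.94. All 10 Hoxb genes stayed below 0 under that scaling and under quantile normalization, with 4 and 3 of them past the adjusted p, and with an equal median 1 Hoxc and 2 Hoxd genes were higher by the adjusted p alone. In Hoxa, 1 gene passed lower under either scaling in place of 4. Over all Hox genes, the 12 lower and 1 higher by the adjusted p alone became 5 and 3 with an equal median. Over all genes, 101 were called higher and 384 lower at day 1, against 187 and 175 with an equal median and 169 and 217 with quantile normalization. *Hoxb1* kept its call under each of 26 other settings, between -2.32 and -1.82.

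**Figure D4:**
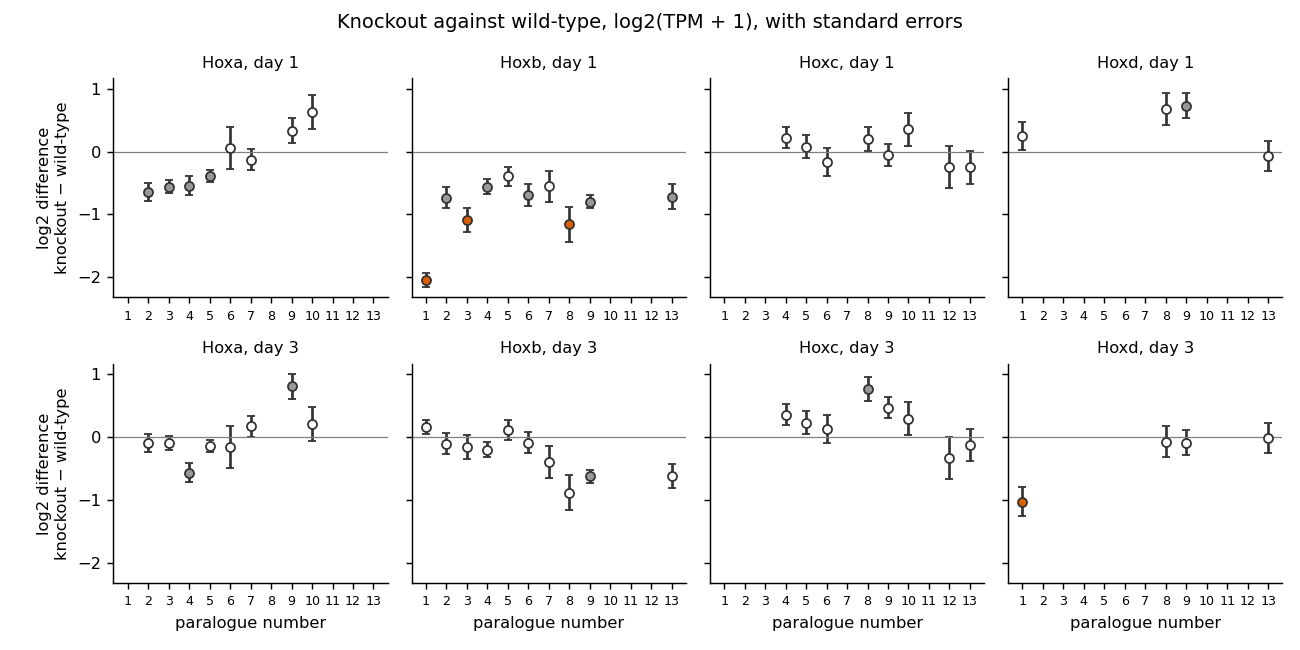
Difference between knockout and wild-type cells (y axis, log2 of TPM + 1, with standard errors from the fit over all 17 libraries) by paralogue number (x axis) for 30 of the 31 Hox genes tested, at day 1 (top) and day 3 (bottom) of RA, with orange for genes called, grey for an adjusted p under 0.05 alone and white for the rest. At day 1 all 10 Hoxb genes lie below 0 with Hoxb1 at -2.04, and at day 3 Hoxd1 is the one gene called.

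Markers of other cell types moved with the genotype at the same day. The 7 primitive endoderm markers, a lineage that RA can also induce, summed to 83.0, 84.0 and 82.0 TPM in wild-type cells against 24.6, 23.2 and 21.4 TPM in KO cells at day 1, with *Gata6* the most abundant and none of the 7 at 0. Of these, 4 were called lower in the KO (all genes 1.76%), *Sox7* at -2.38, *Gata6* at -1.71 and *Dab2* at -1.22 leading (adjusted p = 2.99e-06, 1.32e-07 and 0.000324). The 8 embryonic stem cell markers summed to 8491, 8964 and 8905 TPM in wild-type cells against 10759, 10537 and 11477 TPM in KO cells, mostly as *Dppa5a*, and *Esrrb* was called higher in the KO (log2 difference 1.09, SE 0.09, adjusted p = 3.11e-06). The 10 fibroblast markers summed to no more than 11.6 TPM in any library at day 1, and *Dcn*, *Lum*, *Postn* and *Fap* were at 0 in all of them. The neuroectoderm, mesoderm and trophoblast markers summed to 114, 106 and 116, to 371, 408 and 360.3 and to 22.4, 24.0 and 27.9 TPM in wild-type cells and to 109, 106 and 109.8, to 402, 382 and 418 and to 20.2, 20.5 and 19.6 TPM in KO cells, and none of them was called. The part of these markers in the Hox differences was not tested.

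At day 3, *Hoxb1* no longer differed past the threshold, and 1 Hox gene was called between the genotypes, where 1.29% of all genes were (0.521% higher and 0.773% lower). *Hoxb1* was at 40.9 ± 2.18 TPM in KO and 36.5 ± 2.99 TPM in wild-type cells (SD, n = 3; log2 difference 0.16, SE 0.12, adjusted p = 0.532). The gene called was *Hoxd1*, lower in the KO (log2 difference -1.03, SE 0.23, adjusted p = 0.0127), and it rests on values under 2 TPM. It lost the call without KO replicate 1 (-0.89), wild-type replicate 1 (-0.99) or wild-type replicate 3 (-0.99). By the adjusted p alone, *Hoxb9* (log2 difference -0.62, SE 0.10, adjusted p = 0.0014) and *Hoxa4* (log2 difference -0.56, SE 0.15, adjusted p = 0.0302) were lower in the KO too. *Hoxa9* (log2 difference 0.81, SE 0.20, adjusted p = 0.021) and *Hoxc8* (log2 difference 0.77, SE 0.19, adjusted p = 0.0257) were higher. Of all genes, 7.52% passed by the adjusted p alone (3.96% higher and 3.56% lower). *Hoxa4* had an adjusted p of 0.111 without KO replicate 1. The median KO level as a percent of wild-type was 92.7% in Hoxa, 89.7% in Hoxb and 124% in Hoxc at day 3, and had been 76.2%, 55.2% and 94.3% at day 1. These medians cover the 7 Hoxa, 10 Hoxb and 6 Hoxc genes with a group mean of at least 5 TPM. The Hoxc percents at day 1 ran from 72.1% to 429%. The 429% is *Hoxc8*, at means of 0.222 TPM in KO and 0.0518 TPM in wild-type cells, where 3 reads are 0.214 and 0.230 TPM. *Hoxc9* was also under the level of 3 reads in both genotypes at day 1, so the Hoxc median at day 1 rests partly on such values. Over all 11 Hoxa genes, the median difference at day 3 was 0.0743 on the log2 scale.

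Genes of the marker lists were called at day 3 too, where 0.521% of all genes were higher and 0.773% lower in the KO. Primitive endoderm markers summed to 567, 584 and 616 TPM in wild-type cells against 297, 336 and 295 TPM in KO cells, with *Foxa2* the most abundant, none at 0, and 3 of 7, *Gata4* (-1.73), *Sox17* (-1.63) and *Dab2* (-1.13) called lower in the KO (adjusted p = 0.000635, 1.42e-05 and 0.00115). Embryonic stem cell markers summed to 1153, 1259 and 1026 TPM and 1771, 1629 and 1411 TPM, with *Nanog* (1.90) and *Esrrb* (1.76) called higher (adjusted p = 4.27e-10 and 5.14e-08). Fibroblast markers summed to 70.3, 63.1 and 72.5 TPM in wild-type cells against 89.1, 101 and 94.4 TPM in KO cells, mostly as *Col1a1*, with *Fap* at 0 in KO cells and *Col3a1* called higher (log2 difference 1.10, SE 0.14, adjusted p = 0.000214). Trophoblast markers summed to 109, 106 and 122 TPM and 196, 196 and 205 TPM, mostly as *Gata3*, with *Elf5* at 0 in wild-type cells and *Ascl2* (1.83), *Tfap2c* (1.76) and *Hand1* (1.08) called higher (adjusted p = 0.0129, 4.08e-07 and 0.00167). Mesoderm markers summed to 73.3, 74.3 and 80.0 TPM and 104, 113 and 101 TPM, mostly as *Foxf1*, with *Meox1* called higher (log2 difference 1.72, SE 0.25, adjusted p = 0.000561). Neuroectoderm markers summed to 119.9, 116 and 128 TPM and 156, 183 and 162 TPM, mostly as *Nes*, with none called and none at 0. Their part in the Hox levels was not tested.

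The response to RA itself was compared between the genotypes through the difference of the differences, fitted over all 17 libraries. From day 0 to day 1, 2 Hox genes rose less in the KO, *Hoxb1* (log2 difference -2.04, SE 0.17, adjusted p = 0.000138) and *Hoxa4* (log2 difference -1.13, SE 0.22, adjusted p = 0.0195). Of all genes, 0.860% were called (0.187% higher and 0.672% lower). The *Hoxb1* call was kept under 25 of 26 other settings and lost by voom on the recovered reads (adjusted p = 0.166). *Hoxb1* had no reads at day 0 in either genotype, and without wild-type replicate 1 at day 0 *Hoxa4* was at -0.95 with an adjusted p of 0.0877. The count was 1 without wild-type replicate 1 at day 1, where 101 of all genes were called. The fit without wild-type replicate 2 at day 0 left 1 wild-type library at that day, so its Hox calls are not read. In the main fit, 41 of all genes were called higher and 147 lower, or 50 and 92 with an equal median and 77 and 76 with quantile normalization. Between day 1 and day 3, *Hoxb1* rose more in the KO (log2 difference 2.20, SE 0.16, adjusted p = 4.41e-06), with 2 Hox genes called against 2.25% of all genes (1.72% higher and 0.535% lower). The other was *Hoxd1* (log2 difference -1.27, SE 0.32, adjusted p = 0.0283), at -0.93 between those days in KO and 0.35 in wild-type cells. The *Hoxb1* difference between day 1 and day 3 kept its call under each of 26 other settings, between 2.00 and 2.49. *Hoxd1* lost its call under 6 of 25 and was not called without wild-type replicate 1 or 2 or KO replicate 1 or 3 at day 1, or wild-type replicate 1 at day 3, where 1 gene was left. Without KO replicate 1 at day 3, 3 genes were called. Over all genes, 376 were called higher and 117 lower, or 189 and 202 with an equal median and 239 and 193 with quantile normalization, and the median of all genes was 0.13.

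From day 0 to day 3, 3 Hox genes were called, against 2.42% of all genes (1.17% higher and 1.25% lower). Over all genes these were 256 higher and 273 lower, or 179 and 352 with an equal median and 245 and 448 by voom. *Hoxa9* rose more in the KO (log2 difference 1.13, SE 0.29, adjusted p = 0.0373), *Hoxa4* rose less (log2 difference -1.15, SE 0.22, adjusted p = 0.00789), and the change of *Hoxd1* was lower in the KO (log2 difference -1.37, SE 0.34, adjusted p = 0.0309). Each rests on values near 0 at day 0, and *Hoxd1* lost its call under 7 of 25 other settings, with an adjusted p of up to 0.109. *Hoxa9* was at 0.563 and 0 TPM in wild-type cells against 0 in KO cells at day 0, and at 1.63, 2.08 and 1.25 TPM and 3.44, 3.96 and 3.43 TPM at day 3. Without wild-type replicate 1 at day 0, the single wild-type library at day 0 with *Hoxa9* reads, it was at 0.81 (adjusted p = 0.152) and *Hoxa4* at -0.97, under the 2-fold limit. *Hoxd1* was at -1.29 without that library, and none of the 3 calls was kept. A count of 1, lower in the KO, was left without KO replicate 2 or 3 at day 0, or wild-type replicate 1 or 3 at day 3. These fits called 396, 434, 368 and 491 of all genes, against 529 in the main fit.

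**Figure D5:**
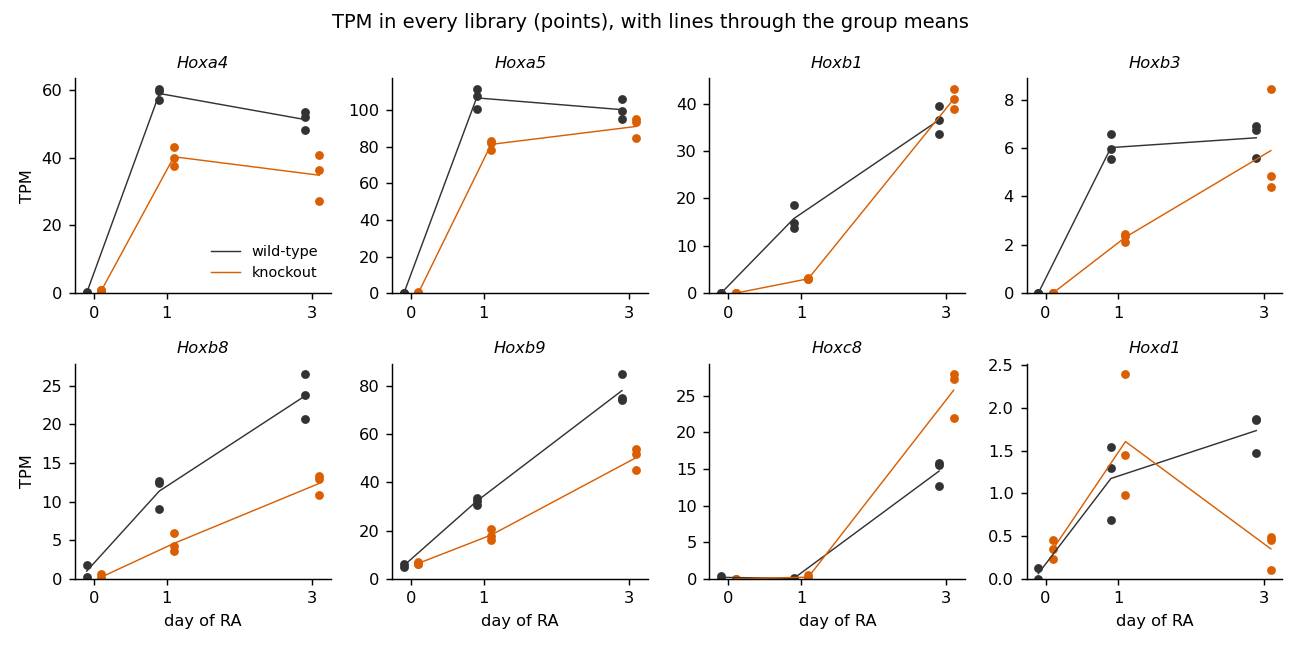
TPM (y axis, from 0, a different scale in each panel) against day of RA (x axis, in days) for 8 Hox genes, with a point for each library and a line through the means of wild-type (dark) and knockout (orange) cells. Hoxb1 in the knockout sits near 3 TPM at day 1 against 13.8 to 18.6 TPM in wild-type, and the groups overlap at day 3.

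Hox proteins bind DNA together with TALE-class partners, the Meis, Pbx and Pknox proteins. Of 9 such genes, all tested, 7 rose at day 1 in wild-type and 4 in KO cells (all genes 9.99% and 4.07%), with *Meis2* (log2 difference 3.16 in wild-type, 1.91 in KO) called in both and *Pknox2* (2.31) in wild-type cells alone. Their summed level at day 1 was 261, 244 and 259 TPM in wild-type cells against 199, 194 and 184 TPM in KO cells. Between the genotypes at day 1, 2 were called lower in the KO (all genes 1.76%), *Meis2* (log2 difference -1.21, SE 0.13, adjusted p = 2.81e-05) and *Pknox2* (log2 difference -1.17, SE 0.16, adjusted p = 0.00024), and none higher. At day 3 none was called in either direction. By the adjusted p alone 2 were higher in the KO and none lower (all genes 3.96% and 3.56%).

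The genes that carry and turn over RA differed too. Of 17 such genes, 15 were tested, and 7 rose at day 1 in wild-type cells (all genes 9.99%), led by *Cyp26a1*, which breaks RA down (log2 difference 4.96, SE 0.22, adjusted p = 5.9e-10). At day 1, 4 of the 15 were called lower in the KO and none higher (all genes 1.76% and 0.462%), led by *Crabp2*, which carries RA to its receptors (log2 difference -2.78, SE 0.23, adjusted p = 2.51e-06). Next came *Stra6*, a retinol importer (log2 difference -1.77, SE 0.17, adjusted p = 1.09e-05). At day 3, *Cyp26a1* was called lower in the KO (log2 difference -2.19, SE 0.19, adjusted p = 9.51e-06). *Cyp26a1* was also lower before RA (log2 difference -1.70, SE 0.22, adjusted p = 0.000258). In the response from day 0 to day 1, 1 of the 15 was called higher in the KO and 3 lower (all genes 0.187% and 0.672%). The gene called higher was *Cyp26a1* (log2 difference 1.69, SE 0.29, adjusted p = 0.00903). From day 0 to day 3, 1 was called higher, *Crabp2* (1.55, adjusted p = 0.0181), and 1 lower, *Dhrs3* (-1.07, adjusted p = 0.00286), where 1.17% and 1.25% of all genes were. Of 7 hindbrain segment regulators, 6 were tested, and *Epha4* (log2 difference -1.44, SE 0.15, adjusted p = 2.53e-05) was 1 of 2 called lower in the KO at day 1 (all genes 1.76%), and *Cyp26c1* (log2 difference -1.41, SE 0.19, adjusted p = 0.000314) was the 1 called lower at day 3 (all genes 0.773%).

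Noncoding genes within the clusters moved as well. Of 16 listed, 9 were tested, and 6 rose at day 1 in wild-type and 5 in KO cells (all genes 9.99% and 4.07%). *Hotairm1*, a noncoding transcript of the Hoxa cluster, was at 0 and 1.98 TPM in wild-type cells against 2.32, 3.88 and 1.27 TPM in KO cells at day 0. It was at 67.3, 68.8 and 76.1 TPM and 56.9, 40.3 and 40.4 TPM at day 1, with a rise in wild-type cells of 5.37 (SE 0.38, adjusted p = 6.86e-08). *Halr1*, a long noncoding RNA beside the Hoxa cluster, was already abundant before RA, at 140.0 and 128 TPM in wild-type cells against 59.0, 60.0 and 67.7 TPM in KO cells. It was at 288, 302 and 319 TPM and 272, 263 and 252 TPM at day 1, then at 69.4, 63.3 and 60.8 TPM and 54.9, 63.6 and 50.1 TPM at day 3. *Halr1* was the single noncoding gene of the list called between the genotypes, lower in the KO at day 0 (log2 difference -1.10, SE 0.09, adjusted p = 6.84e-06), and none was called at day 1 or day 3.

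Genes around the clusters and regulators of them were listed as well. Of 20 protein-coding neighbours listed, 18 were tested, and 2 rose at day 1 in each genotype, *Calcoco2* (log2 difference 3.37 in wild-type and 2.82 in KO cells) and *Ttll6* (2.13 and 1.89), both beside the Hoxb cluster. In wild-type cells 2 of 18 is close to the share of all genes called higher, 9.99%, and in KO cells that share was 4.07%. None was called between the genotypes at any day. Of 8 ParaHox and Evx genes, relatives of the Hox genes, 4 were tested. At day 1, 2 rose and 1 fell in wild-type cells (all genes 9.99% and 3.88%), and 1 rose and 1 fell in KO cells (all genes 4.07% and 2.87%). *Cdx1* rose in both (2.37 in wild-type and 3.22 in KO cells), and *Gsx2* was at 1.60 in wild-type, where it was called, and at 0.71 in KO cells. *Evx1*, the neighbour of *Hoxa13*, fell (-1.41 and -1.20). Of 16 Polycomb subunits, all tested, 3 rose at day 1 in wild-type cells, led by *Cbx8* (log2 difference 2.51, SE 0.27, adjusted p = 5.94e-06), against 9.99% of all genes. At day 3 against day 0, 4 rose and 6 fell in wild-type cells (all genes 16.1% and 9.68%), and 3 rose and 1 fell in KO cells (all genes 13.8% and 8.04%). In wild-type cells *Phc1* (-2.42), *Jarid2* (-1.51) and *Mtf2* (-1.44) fell most, and their KO values were -1.78, -0.82 and -0.99, with *Phc1* called. No Polycomb subunit was called between the genotypes at any day by limma. In the response from day 0 to day 1, *Cbx8* alone of the 16 was called, and it was lower in the KO (log2 difference -1.50, SE 0.37, adjusted p = 0.0499), where 0.672% of all genes were called lower. In the response from day 0 to day 3 none was called by limma, and 6 of the 16 were higher in the KO by the adjusted p alone and none lower, where 6.15% of all genes passed (3.53% higher and 2.62% lower).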

How the data were processed

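RNA from wild-type and *Usb1* KO R1/E cells was sequenced by the authors from NEBNext Ultra libraries on a NovaSeq platform, and the submitters' processing notes name HISAT2 2.1.0, StringTie 1.3.6 and GRCm38.p6. The deposited values are TPM, which the authors calculated from gene length and reads on the gene. For differential expression the authors used DESeq2. Replicates were separate biological samples per the study's methods, and no count table was used here.

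Comparisons were fitted with limma 3.58.1 (R 4.3.3, trended variance) on log2(TPM + 1) for the 21871 genes with at least 1 TPM in at least 2 of the 17 libraries, with 1 coefficient per group (6 groups), no covariates and Benjamini-Hochberg adjustment over all genes tested in each comparison. Calls needed both a 2-fold change or more on that scale and an adjusted p below 0.05. The scale understates the change of low genes. The deposited values are not counts, so reads were recovered from TPM and GENCODE M21 exon lengths. Between 95.9% and 96.7% of values per library came out whole within 0.01 reads, and limma voom on these reads was an alternative. The limit for 0 reads was 3 reads and covers counting error only. On simulated data for knockout against wild-type at day 1, 94% of 200 genes changed by a log2 difference of 2 were recovered among 21871.

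The Hox genes and all gene lists were chosen with earlier results of these data known. Values in every library were given for genes with a group mean of at least 10 TPM, with others given by range, up to 3 rises and falls per comparison were named among those called, and list genes were named where called, up to 3 per list. *Hoxa9*, *Hoxc12*, *Hoxd1*, *Hoxb3* and *Hoxd13* were described below that level because of their calls or rank. The values of some genes are not reported here, although they entered the fits, sums and counts. Upstream windows came from RefSeq. Figures were drawn with Python 3.11.15 and matplotlib 3.10.9. Alternatives were other pseudocounts, filters, call rules, scalings, a robust variance model, a fit on the groups compared, a replicate block and leaving out each library.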

Additional observations from a re-analysis of the deposited data

Results flagged for a closer look

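The results below were picked out because the response to RA differed between the genotypes by a test of the difference itself, from limma on log2(TPM + 1) with Benjamini-Hochberg adjustment over all genes. *Hoxb1* rose less in the KO from day 0 to day 1, by -2.04 on the log2 scale (adjusted p = 0.000138), and more from day 1 to day 3, by 2.20 (adjusted p = 4.41e-06). The first was lost under 1 of 26 other settings, voom on the recovered reads, and the second under none of 26. *Hoxa4* rose less in the KO to day 1, by -1.13 (adjusted p = 0.0195), and to day 3, by -1.15 (adjusted p = 0.00789), each lost under 4 of 26 other settings. *Hoxd1* was lower in its change to day 3 by -1.37 from day 0 (adjusted p = 0.0309) and by -1.27 from day 1 (adjusted p = 0.0283), on values under 3 TPM, lost under 7 and 6 of 25 other settings. *Hoxa9* rose more in the KO from day 0 to day 3, by 1.13 (adjusted p = 0.0373), and kept that call under 7 of 25 other settings.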

How the results depend on the processing

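Calls were followed for every Hox gene called between the genotypes or in the response, and for called genes with a group mean of at least 10 TPM between days, 102 pairs of gene and comparison in all. None reversed. Of the 11 genotype and response calls, 49 of 282 values under other settings lost the call, and of the 91 calls between days, 9 of 2366 did. The number of Hox genes called depended on the setting as follows, and the cause was not tested. Between the genotypes at day 0 the count of 0 became 4 with a pseudocount of 0.1, 3 with the adjusted p alone, 3 with a 1.5-fold limit and 2 by voom. Of all genes, these settings called 953, 2598, 1404 and 1280, against 668 in the main fit. At day 1 the count of 3 became 13 with the adjusted p alone, 9 with a 1.5-fold limit, and 1 with quantile normalization or an equal median. Of all genes, these settings called 3789, 1579, 386 and 362, against 485 in the main fit. At day 3 the count of 1 became 5 with the adjusted p alone, 4 with a 1.5-fold limit, 2 by voom, and 0 with quantile normalization or a filter of 5 TPM, which removes *Hoxd1*. Of all genes, 1645 were called with the adjusted p alone, 784 with a 1.5-fold limit and 285 with quantile normalization, against 283 in the main fit. Voom called 201 of all genes higher and 221 lower, and the filter of 5 TPM left 231 called. Between day 1 and day 3 in KO cells the count of 15 became 25 with the adjusted p alone and 23 with a 1.5-fold limit. Of all genes, these settings called 9818 and 6341, against 3353 in the main fit. For the difference in response to day 1, the count of 2 became 7 with a pseudocount of 0.1. It became 5 with the adjusted p alone or a 1.5-fold limit, and 1 with quantile normalization. Of all genes, these settings called 224, 488, 353 and 153, against 188 in the main fit. For the response to day 3, the count of 3 became 5 with a pseudocount of 0.1. It became 1 with a filter of 5 TPM, a fit on the groups compared, or the replicate block. Of all genes, these settings called 543, 398, 258 and 471, against 529 in the main fit. For the response from day 1 to day 3, the count of 2 became 1 with a pseudocount of 0.1 or a filter of 5 TPM. Of all genes, these settings called 434 and 416, against 493 in the main fit.

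With 1 library left out in turn, the counts between the genotypes stayed at 3 at day 1 and ranged from 0 to 1 at day 3. At day 0 they ranged from 0 to 1, apart from the fit without wild-type replicate 2 at day 0, which is not read here. They ranged from 20 to 22, 28 to 30 and 14 to 16 in wild-type cells (day 1 against day 0, day 3 against day 0, day 3 against day 1), and from 21 to 23, 28 to 29 and 14 to 16 in KO cells. For the difference in response they ranged from 1 to 6 to day 1, from 1 to 4 to day 3 and from 1 to 3 between day 1 and day 3. Where wild-type cells at day 0 kept 1 library, it was assumed to vary like the other groups.

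Libraries of the same replicate number did not deviate together, with correlations of -0.13 to 0.124 over 40 pairs and 1 over 0.1, so the numbers do not pair the samples, and the replicate block moved no other count by over 1.5 times. The edgeR quasi-likelihood alternative on recovered reads was not run. At this depth, 3 reads correspond to 0.277 TPM for *Hoxb1* in KO cells at day 0, and changes of Hoxd and other low genes rest on few reads.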
